A study of Mus musculus with 2 samples.

Results

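In 38 genes of the mouse adrenal gland, an annotated transcript form had more full-length long reads than any other form and yet held under 50% of them in both libraries. They were found among the 1321 annotated genes with 50 or more full-length reads in each library, out of 15683 genes with any read. Long-read RNA sequencing reads a transcript from end to end, so each read shows which exons were joined in 1 molecule. The deposited tables give, for each library, every transcript model with its read count and its class. Known models match an annotated transcript, NIC models join annotated splice sites in a new combination, NNC models contain a splice site absent from the annotation, ISM models match only a stretch of an annotated transcript, and Genomic models may come from genomic DNA or unspliced RNA. Full-length reads are here those of the Known, NIC and NNC classes, and NIC and NNC forms are called unannotated. A form is an annotated transcript or, where unannotated, a chain of introns matched by position between the libraries. Because the rule used the shares of the forms in both libraries, those shares are given as a description, and nothing is read from a test of them.

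The samples were 1 group, adrenal gland of male B6CASTF1/J mice aged 36 days, with 2 libraries labelled biological replicate 1 and replicate 2. B6CASTF1/J are hybrid offspring of the inbred strains C57BL/6J and CAST/EiJ, and reads from the 2 parental genomes were not told apart. The labels disagree on the animals, with a shared animal number in one field and distinct numbers in another, so it is not settled that the libraries came from separate mice. Every p-value below measures the difference between these libraries and no more.

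A gene can give several RNAs through a choice of first exon, of last exon, or of splice sites in between. Cassette exons are included or skipped whole, an intron can be retained, and a shifted donor or acceptor site lengthens or shortens an exon at its 3' or 5' edge. When a segment inside the coding sequence has a length that is a multiple of 3, the reading frame beyond it is kept, while a segment in the untranslated part leaves the protein as it is.

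Replicate 1 held 458001 reads and replicate 2 held 479002, of which 374783 and 368085 were full-length and assigned to genes other than spike-in controls. The 38 genes took 4954 and 4257 of these, or 1.32% and 1.16%. One read was worth 2.21 and 2.16 CPM, the count scaled to the library's total outside the spike-ins. The median model length, with each model counted once per read, was 1850 bases in replicate 1 and 1575 in replicate 2. Markers of the adrenal cortex (6 of 6 genes, 26868 and 22096 reads) and medulla (6 of 6 genes, 4745 and 7143 reads) were abundant in both. The 9 markers of pancreatic acinar cells summed to 34 reads in replicate 1, where 8 of the 9 were at 0, and to 3173 in replicate 2, where none was at 0. The 6 liver markers summed to 3 and 238 reads, with 4 of the 6 at 0 in replicate 1. The 6 fat markers, of which Plin1 is itself 1 of the 38 genes, summed to 2145 and 3170 reads, with none at 0. These differences between the libraries stand beside every comparison of them below, and their part in those results was not tested. In bulk tissue, fewer cells of a type and less RNA per cell cannot be told apart.

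The segments that separate the most abundant forms of several of these genes are short coding stretches. The sequences below were read from the GENCODE M21 transcripts (mouse build GRCm38, mm10), 5' to 3' along the transcript, with the alternative segment in capitals between 15 bases of flanking exon on each side in lower case. They are shown because each one decides between forms whose reads are given later. Vegfa and App show whole cassette exons, and Cnbp, Ecm1, H2-K1, Rbm39, Serbp1, Hnrnpc and Vegfb show shifted splice sites. App and Serbp1, and the second segments of Cnbp and Ecm1, were picked after their values were seen.
Vegfa cassette exon of 132 bases, minus strand, chr17:46020991-46021122: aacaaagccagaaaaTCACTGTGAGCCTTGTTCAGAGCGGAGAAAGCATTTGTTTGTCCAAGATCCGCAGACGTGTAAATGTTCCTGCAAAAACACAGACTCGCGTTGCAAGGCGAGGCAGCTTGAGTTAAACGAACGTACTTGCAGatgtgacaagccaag
App cassette exon of 57 bases, minus strand, chr16:85040251-85040307: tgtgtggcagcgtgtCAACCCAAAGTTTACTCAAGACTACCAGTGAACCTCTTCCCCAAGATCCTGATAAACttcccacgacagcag
App cassette exon of 54 bases, minus strand, chr16:84971408-84971461: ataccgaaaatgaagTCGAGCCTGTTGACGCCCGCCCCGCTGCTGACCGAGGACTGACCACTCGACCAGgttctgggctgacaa
Cnbp donor segment of 21 bases, minus strand, chr6:87845656-87845676: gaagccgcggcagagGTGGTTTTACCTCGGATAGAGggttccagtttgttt
Cnbp acceptor segment of 3 bases, minus strand, chr6:87845321-87845323: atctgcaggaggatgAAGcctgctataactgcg
Ecm1 acceptor segment of 3 bases, minus strand, chr3:95738114-95738116: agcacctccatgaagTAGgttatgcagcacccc
Ecm1 other acceptor segment of 3 bases, minus strand, chr3:95737055-95737057: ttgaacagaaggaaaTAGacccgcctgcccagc
H2-K1 acceptor segment of 27 bases, minus strand, chr17:33996477-33996503: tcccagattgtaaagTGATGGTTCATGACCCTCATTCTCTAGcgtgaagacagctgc
Rbm39 acceptor segment of 18 bases, minus strand, chr2:156154272-156154289: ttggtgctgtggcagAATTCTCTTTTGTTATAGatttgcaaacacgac
Serbp1 acceptor segment of 45 bases, plus strand, chr6:67272819-67272863: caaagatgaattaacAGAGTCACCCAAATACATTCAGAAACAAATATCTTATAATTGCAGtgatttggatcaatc
Hnrnpc acceptor segment of 21 bases, minus strand, chr14:52075416-52075436: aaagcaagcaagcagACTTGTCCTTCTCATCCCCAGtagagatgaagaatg
Vegfb acceptor segment of 101 bases, minus strand, chr19:6985496-6985596: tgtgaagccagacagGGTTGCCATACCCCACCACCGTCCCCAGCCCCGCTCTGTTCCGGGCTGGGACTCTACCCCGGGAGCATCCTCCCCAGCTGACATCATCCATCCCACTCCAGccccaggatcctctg

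The share of the form with most reads ran from 17.9% to 49.2% over the 38 genes in replicate 1 (median 41.5%) and from 16.4% to 49.5% in replicate 2 (median 42.0%). In the other 1283 genes past the same minimum of reads the median share was 95.0% in replicate 1 and 95.2% in replicate 2. Wilson 95% intervals, which cover counting error only since amplified reads without molecular identifiers are not independent molecules, lay wholly under 50% in both libraries for 11 of the 38 genes. For 11 more they did so in 1 library, and for 16 they reached 50% in both. The 11 genes under 50% in both were Chpt1, Cdkn1c, Vegfa, Tmem176b, Agpat3, Meg3, Aifm2, Slc27a1, Tcf25, Cyp21a2-ps and Tmem234. Just inside the threshold stood Lipe (42.4% and 49.5%), Vegfb (49.2% and 45.2%) and Fkbp8 (47.5% and 49.1%), and just outside it Ift20 (50% and 47.1%), Mtfr1l (50.5% and 41.7%) and Nars (50.6% and 49.3%). A further 10 genes had every form under 50% in both libraries but were led by an unannotated form in at least 1, and 27 of the 1321 genes were led by a Known form in both libraries but held under 50% in 1 library only.

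**Figure D1:**
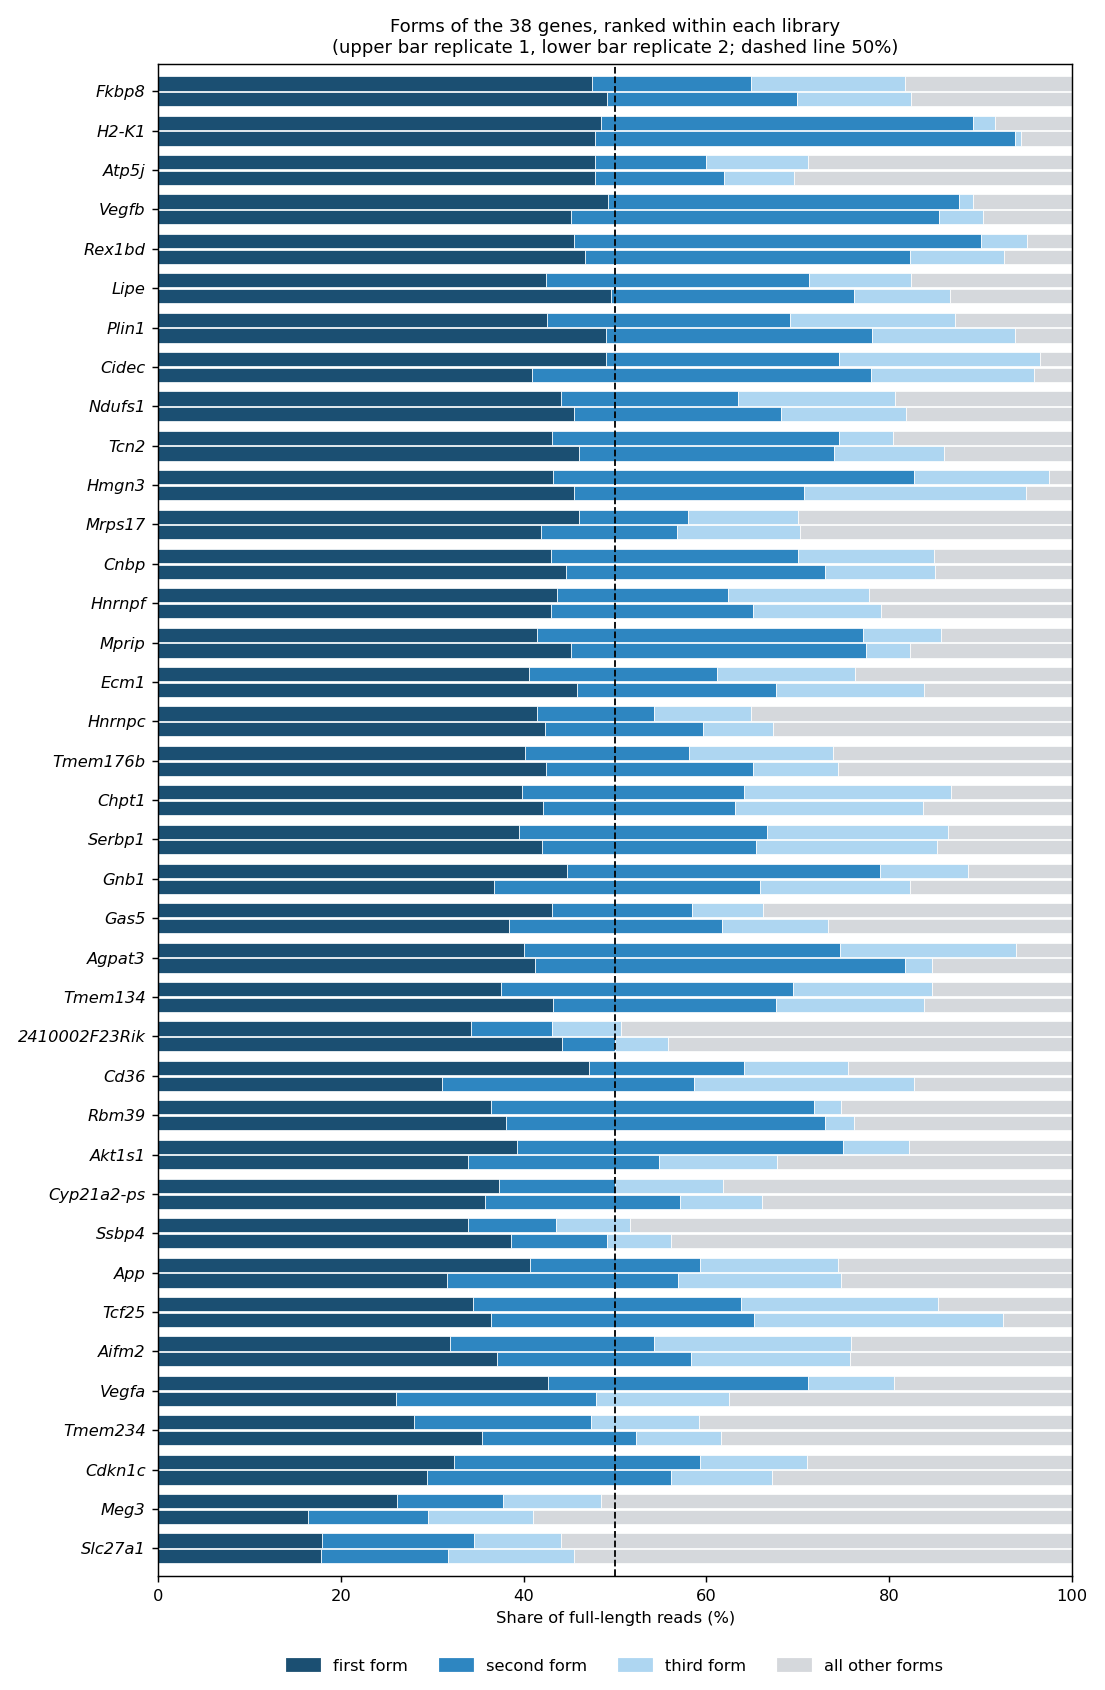
Share of full-length reads (percent, horizontal axis) held by the 3 forms with most reads and by all other forms of each of the 38 genes (rows), with replicate 1 as the upper bar and replicate 2 as the lower bar. The first form stayed under 50% in every row, from 17.9% to 49.2% in replicate 1 and from 16.4% to 49.5% in replicate 2.

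Vegfa encodes the main growth factor of blood vessels, a factor made by the hormone-secreting cells of the adrenal cortex, and its forms differ in exons for the heparin-binding part that holds the protein at the cell surface. Its leading form, Vegfa-202, had 118 of 277 full-length reads in replicate 1 (42.6%, interval 36.9% to 48.5%) and 25 of 96 in replicate 2 (26.0%, interval 18.3% to 35.6%). Vegfa-201, which lacks the printed 132-base exon, had 79 and 21 reads. Vegfa-207, which holds an additional exon of 72 bases, had 10 and 13. The annotated coding sequences give 368, 146 and 392 residues, and the short one is annotated from a different start codon. An intron of 826 bases was retained in a pair of unannotated forms, with the 132-base exon in 26 and 14 reads and without it in 21 and 9. Each combination of these choices was thus seen in both libraries, with the fully spliced form that holds the exon first among the 4 in each.

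Vegfb, a relative of Vegfa that binds one of the same receptors, was split between 2 forms whose order differed between libraries. Vegfb-202 had 32 and 25 reads, and Vegfb-201, extended by the printed 101-base acceptor segment, had 25 and 28. The segment is not a multiple of 3, and the annotated proteins have 188 and 207 residues. The extension changes the end of the protein, and the products of this choice are known as a form that binds heparin and a soluble one.

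Ecm1, a secreted protein of the extracellular matrix, was divided by 2 acceptor shifts of 3 bases each, both shown above. Ecm1-202 holds both segments and had 118 and 99 reads, or 40.5% and 45.8%. The form that lacks the first printed segment is not annotated and had 60 and 35 reads. Ecm1-201, which lacks the second, had 44 and 47, and an unannotated form that lacks both had 19 and 20. Tcn2, the vitamin B12 carrier of plasma, had 22 and 23 reads in Tcn2-207 and 16 and 14 in Tcn2-203, which differ by a 37-base donor segment and share 1 coding sequence.

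App, the membrane protein from which the amyloid-beta peptide is cut, had 4 main forms made by 2 cassette exons. App-206, with both, had 35 and 30 reads (40.7% and 31.6%) and encodes 770 residues. App-202, without the 57-base exon, had 13 and 24 reads, App-203, without the 54-base exon, had 16 and 15, and App-204, without either, had 12 and 17. App-201, which encodes the 695 residues of the form best known from neurons and lacks the 168-base exon for the Kunitz protease inhibitor domain as well as the 57-base one, had 6 and 4 reads. H2-K1, a class I histocompatibility heavy chain, was divided almost evenly by the 27-base acceptor segment shown above. H2-K1-205 had 81 and 74 reads and H2-K1-201, with the segment, 68 and 77, for proteins of 360 and 369 residues. Class I genes resemble each other closely, so the assignment of reads among them is uncertain.

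**Figure D2:**
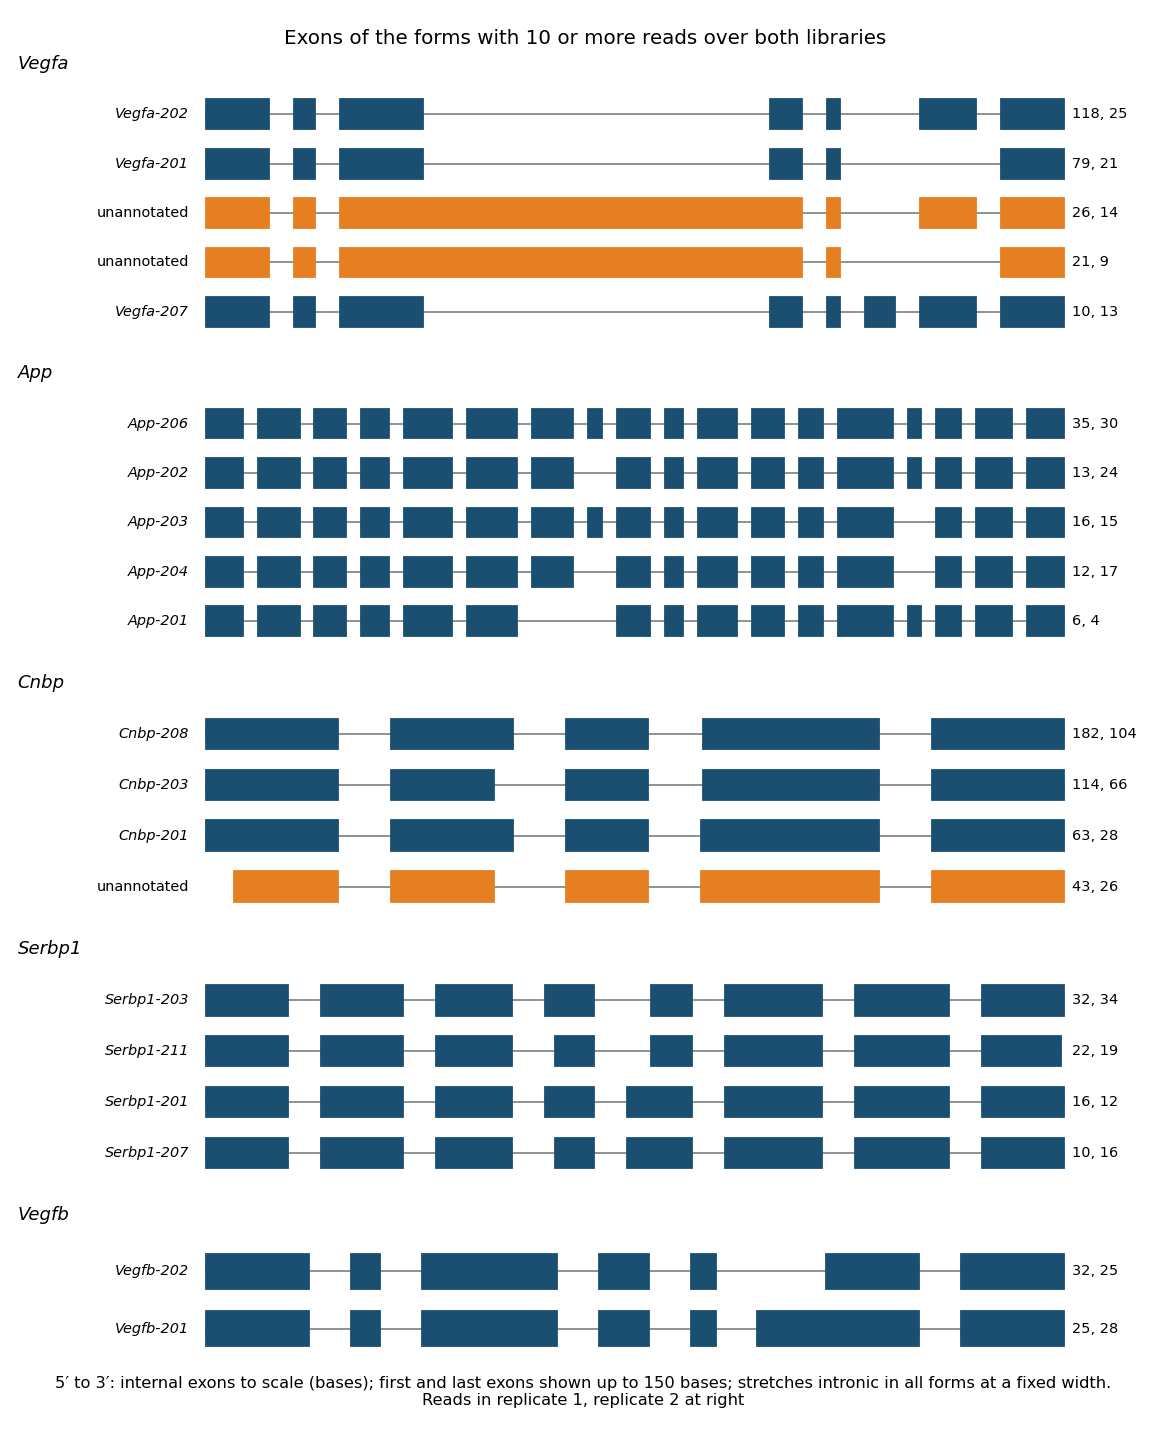
Exon maps of the main forms of Vegfa, App, Cnbp, Serbp1 and Vegfb, drawn 5' to 3' along the transcript with internal exons to scale in bases, first and last exons cut short and shared introns at a fixed width, with annotated and unannotated forms in different colours. The 2 numbers at the right of each form are its reads in replicate 1 and replicate 2, for example 118 and 25 for Vegfa-202 and 182 and 104 for Cnbp-208.

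Chpt1, Agpat3, Cidec, Plin1, Lipe, Cd36 and Slc27a1 act in lipid metabolism, a group named after the values were seen. In 5 of the 7 the second form differed from the leading one in the first exon. These 5 are among the 10 of all 38 genes where it did so, and nothing is read from the count. Chpt1, the enzyme that joins choline to diacylglycerol to make phosphatidylcholine, had the most reads over both libraries. Chpt1-203 (406 residues) had 123 of 309 reads in replicate 1 and 170 of 404 in replicate 2. Chpt1-207, annotated as a target of nonsense-mediated decay, is extended at a donor site by 93 bases and had 75 and 85 reads, and Chpt1-201, which retains the whole 2441-base intron, had 70 and 83. Both are annotated with a protein of 398 residues. Agpat3, an acyltransferase of phospholipid synthesis, had 52 and 53 reads in Agpat3-201 and 25 and 54 in Agpat3-204, which starts at another first exon and encodes the same protein. An unannotated form with an added 85-base exon had 45 full-length reads in replicate 1, second there, and 40 in replicate 2 that were classed as ISM and so not counted; with these counted it would be the second form over both libraries, and the difference would be one of internal splicing.

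Cidec and Plin1 coat lipid droplets, and Lipe is the hormone-sensitive lipase that releases fatty acids and, in steroid-making cells, cholesterol from its esters. Cidec-202 had 140 and 108 reads (49.0% and 40.9%), and Cidec-203, from another first exon and with a protein of 249 residues in place of 239, had 73 and 98. Cidec-201, with the protein of the leading form and an 11-base donor difference outside the coding sequence, had 63 and 47. Plin1-206 had 40 and 47 reads, Plin1-202, from another first exon, 25 and 28, and Plin1-201 17 and 15, all 3 with the same coding sequence. Lipe-202 had 53 and 52 reads for a protein of 759 residues, and Lipe-201, from another first exon, 36 and 28 for one of 802.

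Cd36, a receptor and carrier of fatty acids, had a different form with most reads in each library, and these 2 forms start at different first exons. Cd36-201 had 25 of 53 reads in replicate 1 and 16 of 58 in replicate 2, and Cd36-204 had 6 and 18, with 1 coding sequence between them. Slc27a1, a fatty acid transporter, had no form above 17.9%. Its reads were spread over 67 forms, of which 48 were single reads that made up 25.9% of its full-length reads. Slc27a1-207 had 15 and 18 reads, an unannotated form with an added 91-base exon 14 and 14, and one with a 14-base donor shift 8 and 14. Aifm2, an oxidoreductase that keeps coenzyme Q reduced and so protects membrane lipids, had 37 and 49 reads in Aifm2-203, 26 and 28 in Aifm2-201 and 25 and 23 in Aifm2-204. These forms differ at the last exon or by a retained intron and share 1 coding sequence.

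Among RNA-binding proteins, Cnbp, a zinc-finger protein that binds single-stranded nucleic acids, was divided by the 21-base donor and the 3-base acceptor segments shown above. Cnbp-208 (177 residues) had 182 of 423 reads and 104 of 233, or 43.0% and 44.6%. Cnbp-203 lacks the 21 bases (170 residues) and had 114 and 66 reads, and Cnbp-201 has the 3 added bases (178 residues) and had 63 and 28. The fourth combination is not annotated and had 43 and 26 reads. The rank order of the 4 forms was the same in both libraries.

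Serbp1, a binder of mRNAs and ribosomes, was the 1 gene of the 38 with no unannotated read, and it had 5 forms in all. Serbp1-203 (392 residues) had 32 and 34 reads, Serbp1-211 (386 residues) 22 and 19, Serbp1-201 (407 residues, with the 45 bases shown above) 16 and 12, and Serbp1-207 (401 residues, also with the 45 bases) 10 and 16. Rbm39, a splicing factor, had 35 and 24 reads in Rbm39-201 and 36 and 22 in Rbm39-203, which holds 18 more bases. Hnrnpc, which coats nascent transcripts, had 39 and 22 reads in Hnrnpc-205, 12 and 9 in Hnrnpc-211 without 21 bases, and 10 and 3 in Hnrnpc-201 with a 39-base donor extension. Hnrnpf, a regulator of splicing that binds runs of guanine, had 51 and 37 reads in Hnrnpf-201 and 22 and 19 in Hnrnpf-209, from another first exon and with the same protein. These 3 were the members among 11 of 38 listed SR proteins and hnRNPs that had 50 full-length reads in each library. Over all measured genes the members were 2.88% (38 of 1321). The list was chosen with earlier results of these data known, so nothing is read from this count.

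In mitochondrial energy metabolism 2 genes were members, of 40 measured among 43 listed. Ndufs1, the largest subunit of respiratory complex I, had 41 and 50 reads in Ndufs1-201, 18 and 25 in Ndufs1-203 with the same coding sequence, and 16 and 15 in an unannotated form with an added 104-base exon. Atp5j, a subunit of the stalk of ATP synthase, had 43 and 44 reads in Atp5j-201, and ISM reads made up 60.4% and 67.4% of all its reads, the highest shares among the 38. Mrps17, a protein of the small mitochondrial ribosomal subunit, had 23 and 31 reads in Mrps17-201 and 6 and 10 in Mrps17-205, from another first exon with the same protein. Listed genes of steroid synthesis (18 measured), chromaffin cells (10), cytosolic ribosomal proteins and translation (22), the cytoskeleton (14) and vesicle coats (4) had 0 members. Over all measured genes the members were 2.88% (38 of 1321), so that in lists of this size 0 lies near the background.

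Signalling and chromatin genes followed several patterns. Cdkn1c, an imprinted inhibitor of cyclin-dependent kinases that in humans is needed for a normal adrenal cortex, had 78 and 43 reads in Cdkn1c-201 and more than that in unannotated forms together, 59.3% and 61.6% of its full-length reads. The first of these, with 36 bases added at a donor site, had 65 and 39 reads. Gnb1, a beta subunit of heterotrimeric G proteins, had 51 and 23 reads in Gnb1-201 and 39 and 29 in Gnb1-202, which skips a 49-base exon outside the coding sequence. Akt1s1, an inhibitor of the mTOR kinase complex, had 22 and 13 reads in Akt1s1-203 (283 residues) and 20 and 21 in Akt1s1-204 (328 residues), with different first exons. Hmgn3, a nucleosome-binding protein, had 32 and 45 reads in Hmgn3-201 (77 residues), 35 and 24 in Hmgn3-203, which retains a 604-base intron (95 residues), and 12 and 25 in Hmgn3-202 (99 residues).

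Fkbp8, an immunophilin anchored in the outer mitochondrial membrane, had 104 and 106 reads in Fkbp8-201, 37 and 45 in Fkbp8-204, from another first exon with the same protein, and 38 and 27 in Fkbp8-202, which lacks 3 coding bases. Tcf25 had forms with 2 different transcript ends, with 40 and 24 reads in Tcf25-201 (676 residues), 34 and 19 in Tcf25-208 (625 residues) and 25 and 18 in Tcf25-202 (626 residues). Mprip, which targets myosin phosphatase to actin, had 29 and 28 reads in Mprip-204 and 25 and 20 in Mprip-202 without a 66-base exon. Tmem176b, a membrane protein, had 69 and 73 reads in Tmem176b-203, 31 and 39 in Tmem176b-209 and 27 and 15 in Tmem176b-202, with 1 coding sequence. Tmem234 had 26 and 23 reads in Tmem234-201 (28.0% and 35.4%) and 18 and 11 in Tmem234-210, which is annotated as a target of nonsense-mediated decay and is extended by 109 bases at a donor site. Ssbp4 (33.9% and 38.6%) and 2410002F23Rik (34.2% and 44.2%) had 1 leading form and then a tail, with 5 and 6 reads in the second form of Ssbp4 and 6 and 3 in that of 2410002F23Rik. In Rex1bd the leading form stood at 45.5% and 46.7%, and its second, Rex1bd-207, is annotated as a retained intron and had 45 and 38 reads.

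Of the 38 genes, 4 are not annotated as protein-coding genes. Meg3, an imprinted long non-coding RNA, had 34 and 14 reads in Meg3-205 (26.2% and 11.5%) and 14 and 20 in Meg3-207 (10.8% and 16.4%), so that each library had a different first form. Gas5, whose introns carry small nucleolar RNAs, had 28 and 23 reads in Gas5-224 and 10 and 14 in Gas5-210, which skips a 41-base exon. Meg3 and Gas5 were 2 of the 3 measured genes among 30 listed long non-coding and host genes, beside 2.88% (38 of 1321) over all measured genes. With so few genes, in a list chosen with earlier results known, nothing is read from this count. Tmem134 had 27 and 32 reads in Tmem134-208 and 23 and 18 in Tmem134-215 without a 45-base exon. Cyp21a2-ps, a pseudogene of the steroid 21-hydroxylase, has 1 annotated transcript, which had 38 and 20 reads, and the rest of its reads fell to unannotated forms. It is nearly identical to the active gene Cyp21a1, so its reads and forms are uncertain.

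Over the 38 genes, the second form was Known in 32 and unannotated in 6 (Ecm1, Cdkn1c, Slc27a1, Atp5j, Ssbp4 and Cyp21a2-ps). The difference between the 2 leading forms lay in the first exon alone in 10 genes, in internal splicing alone in 23 and in the last exon in 3, among which Meg3 also differed internally. A retained intron was counted in 2 genes, Hmgn3 and Cyp21a2-ps. Rex1bd, whose second form is annotated as a retained intron, was counted under the first exon, because introns beyond a differing first exon were not compared. Of the 10 genes divided by a first exon, 6 kept the coding sequence (Fkbp8, Agpat3, Hnrnpf, Plin1, Mrps17 and Cd36) and 3 changed it (Cidec, Lipe and Akt1s1). Of the 23 divided by internal splicing alone, 11 changed the annotated coding sequence and 5 kept it. Across the second form of each gene and all further forms with 10 or more reads, 24 cassette exons were counted in 15 genes, 17 donor segments in 17 genes, 18 acceptor segments in 14 and 8 retained introns in 7. Acceptor segments of 3 bases numbered 8, in 7 genes. Of the exon, donor and acceptor segments that lie wholly in annotated coding sequence, 18 of 21 were a multiple of 3. Over all exon, donor and acceptor segments it was 30 of 59. The 59 add segments partly in or outside coding sequence and those of genes without a coding sequence. They also add segments held by unannotated forms, whose place in a coding sequence was not assessed.

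The members carried more annotation and more forms than the other genes past the same minimum of reads, as a description of a list chosen on its forms. The median number of annotated transcripts was 11 in the members and 5 in the other genes, and the median number of annotated coding sequences was 5 in the members and 2 in the others. The leading form had a median of 9 exons in the members and 6 in the others, and the gene spanned a median of 15172.5 and 10580 bases. Depth was not matched, with medians of 96.5 and 93.5 full-length reads in the members and 110 and 104 in the others. The mean of both libraries reached 356.5 reads in the members and 5314 in the others. The median number of forms with 5 or more reads in each library was 3 in the members and 1 in the others. Unannotated forms held a median of 18.1% and 17.2% of the members' full-length reads, and of 2.56% and 2.35% in the others. ISM reads made up a median of 7.72% and 9.25% of all the members' reads, and 2.83% and 3.48% in the others.

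ISM reads, which the rule left out, could be set beside the full-length ones where they cross a junction that tells the 2 leading forms apart. At least 10 such reads per library were found in Fkbp8, H2-K1, Plin1 and Meg3. In Fkbp8, Plin1 and Meg3 the 2 forms differ at an end of the transcript, which a partial read can lack, so the ISM reads there are not set against the full-length ones. In H2-K1, divided inside the transcript, the junctions of the leading form took 61.1% of 18 ISM reads and 33.3% of 24, beside 54.4% and 49.0% of the full-length reads of the 2 forms. The Wilson intervals of these ISM shares, 38.6% to 79.7% and 18% to 53.3%, hold the full-length shares.

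Forms seen as a single read over both libraries made up a median of 4.80% of full-length reads in the members and 1.36% in the other genes, with a median of 11 such forms per member and 4 per other gene. Of the members, 19 had at least 1 unannotated form with 5 or more reads in each library, as had 117 of the other 1283 genes, and in 5 members (Cdkn1c, Meg3, Slc27a1, Cyp21a2-ps and Ssbp4) unannotated forms together held 50% or more in both libraries. Forms seen once and unannotated forms counted in the sums that the rule used, and so lowered the share of the first form. The rule thus helps to set members and other genes apart here, and nothing is read from these contrasts. The annotation places a gene on the opposite strand over part of 19 members and a gene on the same strand over part of 5, so reads at these places may be shared. The overlapping gene with most reads was Tmem176a, with 127 and 124, which lies opposite Tmem176b.

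Forms can differ in sequence and still share an annotated coding sequence. Proteins were not measured, and joining such forms can only keep or raise the leading share. When forms with the same annotated coding sequence were joined, 1 coding sequence held 50% or more in both libraries in 14 of the 34 protein-coding members. The count was 1184 of 1234 in the other protein-coding genes. The rule itself sets these counts apart, since members had no form at 50% and most other genes had 1. Nothing is read from the contrast. Plin1 reached 87.2% in replicate 1 and 93.8% in replicate 2, Gnb1 85.1% and 82.3%, Tcn2 84.3% and 86.0%, Tmem176b 82.0% and 83.1%, and Aifm2 75.9% and 75.8%. In the other 20 no coding sequence reached 50% in both. In Chpt1, joining Chpt1-207 and Chpt1-201 put their coding sequence first in replicate 1, with 46.9%, ahead of that of Chpt1-203. Unannotated forms were counted as having no coding sequence, so a protein that they share with an annotated form was not added to it.

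**Figure D3:**
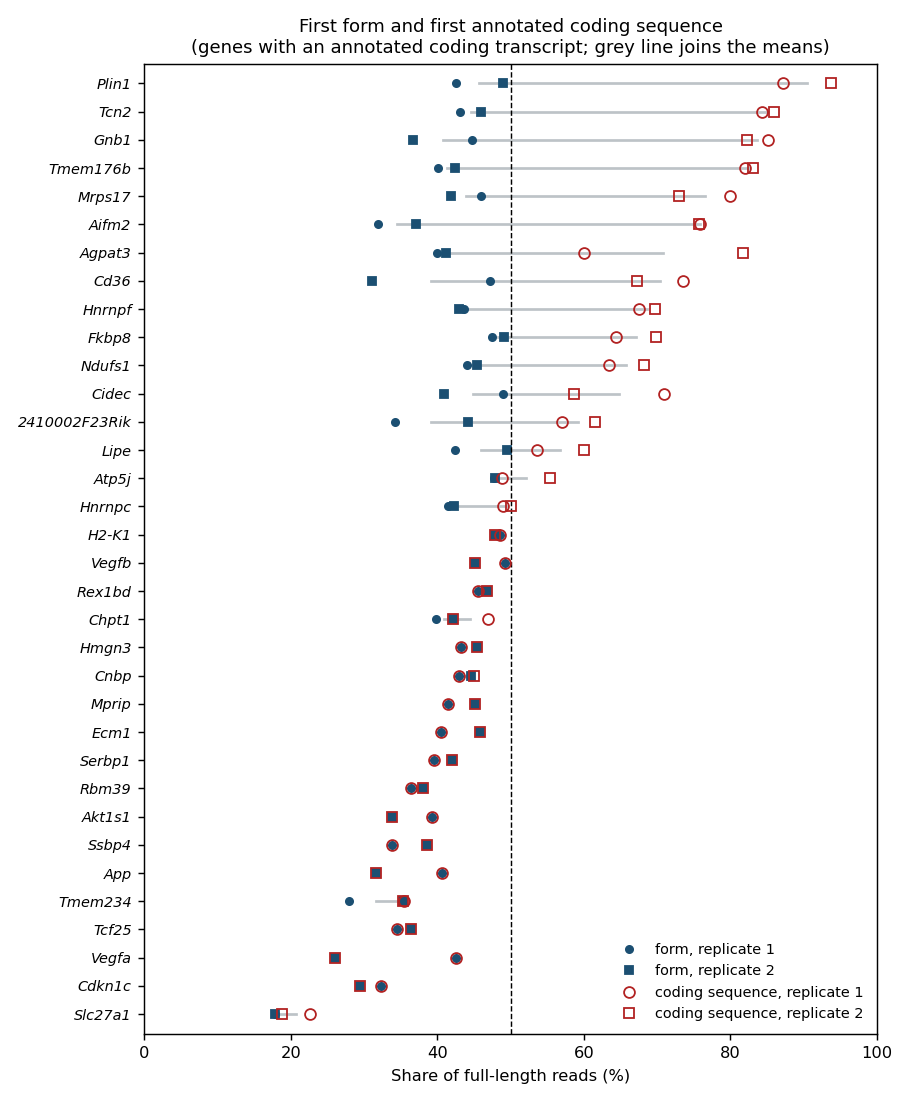
Share of full-length reads (percent) held by the leading form and by the leading annotated coding sequence in each of the 34 protein-coding members, with circles for replicate 1, squares for replicate 2 and a dashed line at 50%. In 14 of the 34 genes the coding sequence reached 50% in both libraries, with Plin1 highest at 87.2% and 93.8%.

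Because each read spans the whole transcript, a pair of choices in 1 gene can be read from the same molecules. In 9 members, 10 pairs of segments were seen in all 4 combinations among the forms with 10 or more reads. In Cnbp, the 3-base segment was present in 25.7% of the 245 reads with the 21-base segment and 27.4% of the 157 reads without it in replicate 1, and in 21.2% of 132 and 28.3% of 92 in replicate 2. In Ecm1, the second 3-base segment was present in 72.8% of reads with the first and 75.9% without it in replicate 1, and in 67.8% and 63.6% in replicate 2. In App, the 54-base exon was present in 68.6% of reads with the 57-base exon and 52.0% without it in replicate 1, and in 66.7% and 58.5% in replicate 2. The Wilson intervals with and without the first segment overlapped in both libraries in 10 of the 10 pairs, and the difference had the same sign in both libraries in 3. Pairs with a combination missing from these forms were left out, so choices that exclude or require each other could not enter the count. The 10 pairs therefore do not tell how often choices in 1 gene are linked. Each side of a pair rested on 10 to 255 reads, so the intervals were wide and a difference smaller than them was not detectable at this depth.

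**Figure D4:**
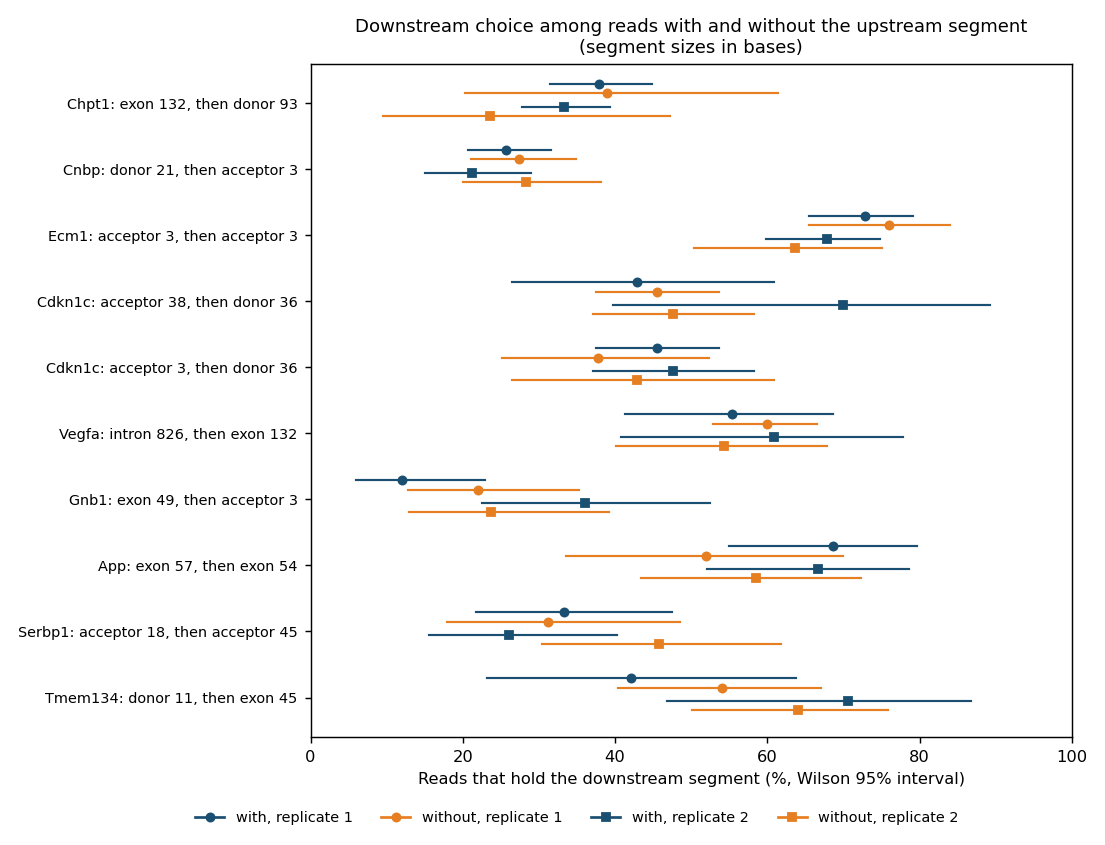
For each of the 10 pairs of segments (rows), the percent of reads that hold the downstream segment (horizontal axis) among reads with and among reads without the upstream one, with circles for replicate 1, squares for replicate 2 and Wilson 95% intervals as bars. The bars with and without overlapped in every pair in both libraries, for instance 25.7% and 27.4% for Cnbp in replicate 1. Pairs that lacked a combination among the forms with 10 or more reads were not included.

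The form with most reads was the same in both libraries in 29 of the 38 members and in 1269 of the other 1283 genes. The rule itself sets these counts apart, since a first form with a high share can hardly lose its place. Nothing is read from the contrast. The first form differed in H2-K1, Agpat3, Meg3, Gnb1, Hmgn3, Rbm39, Vegfb, Akt1s1 and Cd36, where the 2 leading forms stood within 10 points of each other in at least 1 library. The share of the leading form over both libraries was compared between them on read counts with Fisher's exact test (two-sided), with p-values adjusted after Benjamini and Hochberg over the 1321 genes. A gene was called where the adjusted p was under 0.05 and the shares differed by 10 percentage points or more. The rule had used these shares and bounds them under 50% in both libraries, so nothing is read from the count for the members: 0 of the 38 were called, and 0.227% of all genes were (3 of 1321). At an unadjusted p under 0.05 stood 4 members (Meg3, Vegfa, Gnb1 and Cd36) and 77 of all genes. The Vegfa-202 share was 16.6 points higher in replicate 1 and the Meg3-205 share 14.7 points higher.

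**Figure D5:**
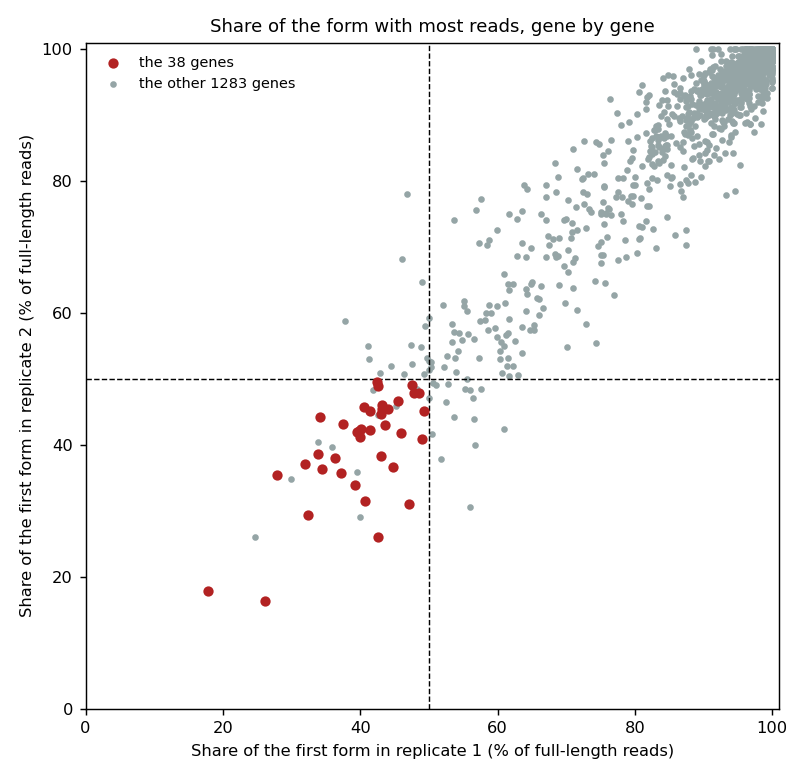
Share of full-length reads held by the form with most reads in replicate 1 (percent, horizontal axis) and by that in replicate 2 (percent, vertical axis), with 1 large point for each of the 38 members and 1 small point for each of the other 1283 genes. The members lie under the dashed lines at 50% on both axes, down to Slc27a1 (17.9% and 17.8%) and Meg3 (26.2% and 16.4%), while the other genes gather near the upper right corner, with medians of 95.0% and 95.2%.

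A test of every form with 10 or more reads, added after the data were seen, called 2 forms of 1 member, against 0.292% of all forms; these shares too were used by the rule, and the calls are given as a description. The unannotated Agpat3 form with an added 85-base exon had 45 full-length reads in replicate 1 and 0 in replicate 2 (a difference of 34.6 points), and the Agpat3-204 share was 22 points lower in replicate 1. The same intron chain had 40 reads in replicate 2 under the ISM class, which full-length reads leave out. With chains counted as full-length in both libraries wherever they were NIC or NNC in either, 0 forms of members were called, against 0.146% of all forms. The class of an unannotated chain seen in both libraries differed between them in 29 of 254 chains of the members (11.4%), 10 of which were full-length in 1 library and ISM in the other. Over all genes it differed in 455 of 8473 (5.37%). Among the members' chains that were full-length in 1 library and ISM in the other, the largest after that of Agpat3 were in Tmem176b (11 NIC and 10 ISM reads) and Atp5j (10 NNC and 12 ISM reads).

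The level of each gene, over reads of all classes, was compared between the libraries with Fisher's exact test, adjusted over the genes tested, and a call needed a 2-fold difference besides an adjusted p under 0.05. Vegfa was called, and was the only 1 of the 38, while 3.16% of 8135 genes were, 1.71% with the higher level in replicate 1 and 1.45% with the higher level in replicate 2. It had 300 reads in replicate 1 and 114 in replicate 2, or 663 and 246 CPM, a log2 ratio of 1.43 (Fisher's exact test, adjusted p = 2.74e-19). At any fold, 9 of the 38 members had an adjusted p under 0.05, and 6.47% of all genes tested did. Those genes needed only 10 reads over both libraries, while each member had 50 or more full-length reads in each. The test finds smaller differences at greater depth, so nothing is read from the contrast. Beside Vegfa, the log2 ratios of replicate 1 over replicate 2 were 0.87 for Cnbp, 0.86 for Cyp21a2-ps, 0.81 for Hnrnpc, 0.71 for Cdkn1c, 0.64 for Tcf25, 0.54 for Hnrnpf, -0.35 for Chpt1 and -0.41 for Agpat3. The median log2 ratio was 0.06 over the members and 0.03 over all genes tested, and 22 of 38 members and 4493 of 8135 genes were above 0. These tests know counting error only, so they do not say how far 2 libraries of the same tissue differ by chance.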

How the data were processed

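Long-read RNA sequencing of 2 adrenal gland libraries was used. Per the file headers and the labels, the authors deposited 1 table of read counts per transcript model for each library, with gene, transcript and class columns, and 1 transcript annotation (build mm10). The deposited counts are whole reads, not normalized. The aligner and the caller, with their versions: not given in the sources used here. Spike-ins were left out.

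Full-length reads (Known, NIC, NNC) were summed per gene. Forms were matched by annotated transcript, otherwise by intron chain. Structures, coding sequences and segment sequences came from GENCODE M21 (GRCm38). Sequences are printed for selected segments, and 1 of those selected is not reported here. Shares carry Wilson 95% intervals. Libraries were compared by two-sided Fisher's exact tests with Benjamini-Hochberg adjustment, tested on simulated data (Python 3.11.15, pandas 2.3.3, scipy 1.17.1, statsmodels 0.14.6, matplotlib 3.10.9). Scaling factors for CPM alternatives came from edgeR 4.0.16 (TMM) and DESeq2 1.42.0 under R 4.3.3. With 1 sample group and 2 libraries no model of replicate spread could be fitted.

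The members and lists were chosen with earlier results of these data known. All members are named. Described in full are the 12 with most reads, the 3 with most reads of each kind of difference, the 3 lowest shares, called members, those next to the threshold and listed genes; App, Serbp1 and several others were added after their values were seen. Alternatives varied the minimum depth, the 50% threshold, the classes counted, rare forms, chain matching, the library used and the scaling.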

Additional observations from a re-analysis of the deposited data

How the results depend on the processing

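No paired analysis was possible because there is 1 group of samples with 2 libraries. The number of genes under the rule, 38, moved with the rule's own settings: it was 73 at a minimum of 30 full-length reads and 13 at 100, 10 with the leading form under 40% and 84 under 60%, and 70 with the reads of both libraries summed. It was 61 to 71 when 1 library was left out. It was 10 with Known reads only, 72 with ISM reads included (35 of the 38 kept, without Atp5j, Meg3 and Slc27a1), 24 without forms under 2 reads and 19 without forms under 5 reads. Merging transcripts with the same intron chain left 38. Alternatives chosen after seeing the data gave 40 (leading form over both libraries) and 38 (classes joined across libraries). Of the 38, 9 genes kept their place under merged chains, Known reads only, ISM reads, both filters on rare forms and joined classes: Aifm2, App, Chpt1, Hmgn3, Rex1bd, Serbp1, Tcf25, Tmem134 and Tmem234. With Known reads only, the leading form reached 50% or more, as a mean of both libraries, in 22 of the 38. A coding sequence with 50% or more was found in 6 of 12 genes at a minimum of 100 reads and in 21 of 34 with Known reads only, beside 14 of 34. The count of 0 members called on the leading share was also found with any size of difference, merged chains and joined classes, over 28 members with forms under 5 reads left out and over 25 with Known reads only, and testing every form with 10 reads, chosen after seeing the data, gave 1 member. The gene level call of Vegfa held under each scaling, and dropping the 2-fold minimum gave 9 members. At these depths, the interval of the first form reached 50% in both libraries for 16 of the 38 genes.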
